A study of Zea mays with 12 samples.

Results

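In primary roots of maize seedlings, 37 of the 26061 nuclear gene models of the table were lower with nitrate plus PCIB than in every other group. They were chosen by the deposited expression values themselves. On the log2(FPKM + 1) scale the level with nitrate plus PCIB had to be at least 1 below each of the other 3 groups, and the highest of those 3 had to reach 5 FPKM (sequenced fragments per transcript length, relative to all mapped fragments). A difference of 1 on that scale is 2-fold on FPKM + 1. The 4 groups were nitrate plus PCIB (1 mM nitrate with 10 µM PCIB), nitrate (1 mM), TIS108 without nitrogen (2 µM TIS108 in a solution lacking nitrogen) and the N-deprived control (the solution lacking nitrogen alone). All were roots of the inbred line B73, from seedlings germinated for 3 days and then grown for 24 h in the solution named, and poly(A) RNA was sequenced. The 12 samples comprised 3 biological replicates per group, each pooled from 4 to 8 plants. What was analysed is 1 FPKM value per gene and group. No difference below therefore has an SD, a standard error or a p-value, and none was tested. PCIB was combined with nitrate only, so the group with it differs from the nitrate group by PCIB alone. From the other 2 groups it differs in the supply of nitrogen as well, and from the TIS108 group in TIS108 too.

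PCIB, p-chlorophenoxyisobutyric acid, is an inhibitor of auxin action. Auxin acts through the TIR1/AFB receptors, which mark Aux/IAA repressors for degradation and so release auxin response factors, and PCIB is known to impair the loss of these repressors in Arabidopsis. In roots, auxin is known for its part in the founding of lateral roots and in cell elongation. TIS108 inhibits the synthesis of strigolactones, carotenoid-derived hormones that also bear on root branching. Of the 37 identifiers 0 could be paired with a name in the RefSeq gene table used here. The same held for all 26061 nuclear identifiers, so it is no trait of the set. The 37 are therefore given by identifier, no function is assigned to any of them, and the count of auxin pathway genes among them is not known.

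The set is small. Among 15401 nuclear gene models with 5 FPKM or more in the highest of the other 3 groups, the 37 were 0.24%. Nitrate plus PCIB was the lowest of the 4 groups in 4174 of the 15401 (27.1%), by 1.5-fold or more against each other group in 130 (0.844%) and by 4-fold or more in 0. In the opposite direction, 191 gene models were at least 2-fold higher with nitrate plus PCIB than in each other group, 1.3% of 14637 tested, and 61 of these (31.9%, or 0.417% of the gene models tested) by at least 4-fold. The genes lowered only with PCIB were thus fewer than those raised, and their differences were shallower, with a median gap of 1.19 against 1.52 on the log2 scale and a widest gap of 1.72 against 6.05. The gap is the log2 difference to the nearest of the other 3 groups. On this scale a fall is bounded by the level of the lowest other group, whereas a rise has no such bound. The mean of the 3 other groups also differed, with a median of 14.6 FPKM in the lowered set and 5.56 FPKM in the raised set. The 2 depths are therefore not on equal terms. Among gene models low only with nitrate, the median gap was 1.13 and the widest 2.53. Gene models at least 2-fold lower than in each other group numbered 65 with nitrate (0.418% of 15563), 5 with TIS108 (0.0319% of 15660) and 1 in the N-deprived control (0.00649% of 15401). Those at least 2-fold higher than in each other group numbered 16 with nitrate (0.112% of 14291), 0 with TIS108 (0% of 14380) and 69 in the N-deprived control (0.469% of 14708). Without replicates these counts cannot be set against sampling error.

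**Figure D1:**
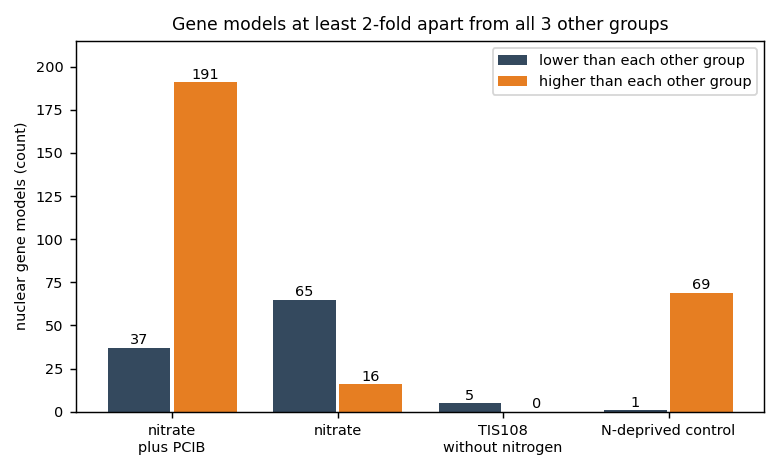
Number of nuclear gene models that were at least 2-fold lower (dark bars) or higher (orange bars) in 1 group than in each of the other 3, on the FPKM + 1 scale, with the level limit of 5 FPKM. With nitrate plus PCIB 37 were lower and 191 higher, whereas with nitrate 65 were lower and 16 higher.

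Each pair of groups gave more low genes than the set holds. With nitrate plus PCIB, 105 gene models were 2-fold lower than with nitrate (0.691% of 15196), 110 lower than with TIS108 (0.726% of 15147) and 296 lower than in the N-deprived control (1.92% of 15388). Members at 5 FPKM or more in the pair made up 34 of the 105, 34 of the 110 and 35 of the 296. These contrasts chose the members, so the counts describe the set and support nothing further. The remaining members lay under 5 FPKM in both groups of the pair and passed through another group.

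The level with nitrate plus PCIB was well above zero in most members. The median over the 37 was 4.996 FPKM with nitrate plus PCIB, 13.5 FPKM with nitrate, 12.98 FPKM with TIS108 and 17.2 FPKM in the N-deprived control. With nitrate plus PCIB 19 members were under 5 FPKM and 1 was under 1 FPKM, and no value of any member was listed at 0. The ratio of nitrate plus PCIB to nitrate had a median of 0.319 and ran between 0.115 and 0.480. Summed over the members, FPKM was 593 with nitrate plus PCIB, 1455 with nitrate, 1559 with TIS108 and 1719 in the N-deprived control, which was 0.123%, 0.310%, 0.349% and 0.346% of the FPKM of each column. Zm00001d031909 alone held a large part of these sums. Without it they were 250 with nitrate plus PCIB, 739 with nitrate, 787 with TIS108 and 905 in the N-deprived control, so the same order holds. In bulk roots, less transcript per cell and fewer cells of a type that expresses the gene cannot be told apart.

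**Figure D2:**
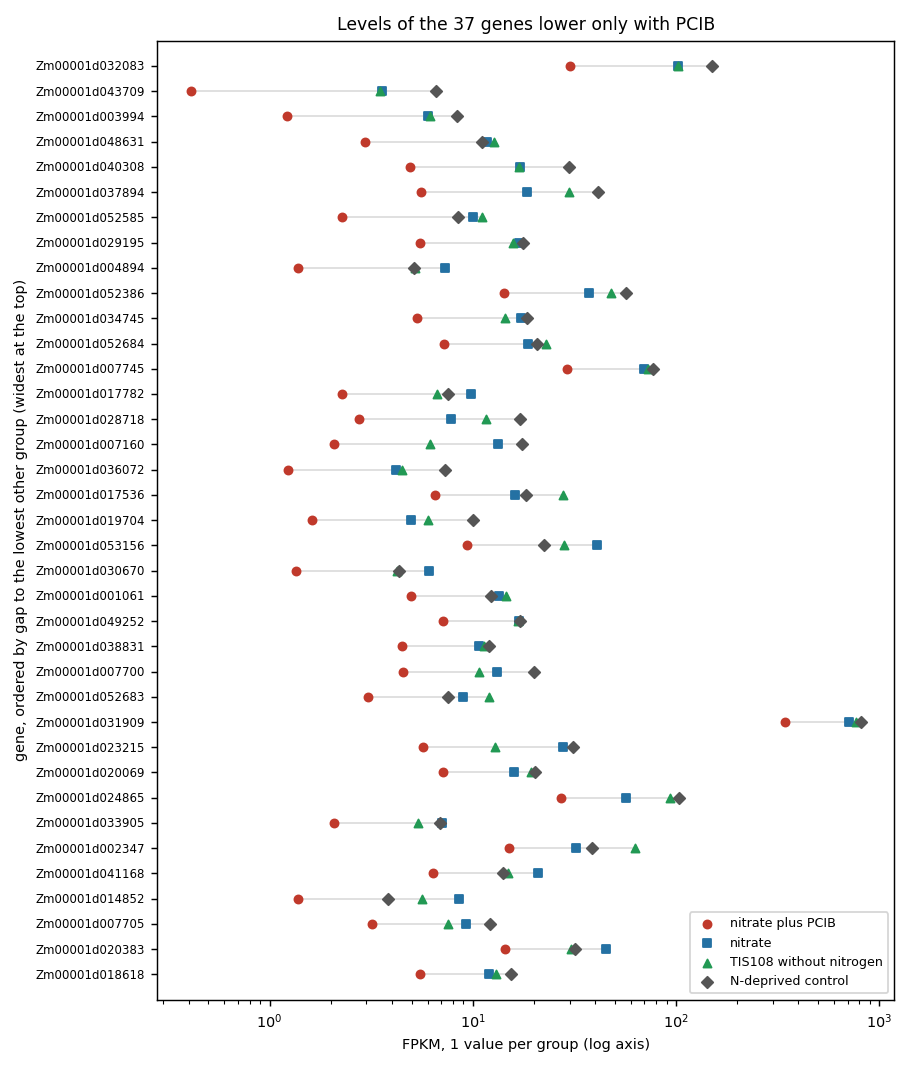
FPKM of each of the 37 genes in nitrate plus PCIB (red circles), nitrate (blue squares), TIS108 without nitrogen (green triangles) and the N-deprived control (grey diamonds), 1 value per group on a log axis, with genes ordered by their gap. The red circle is leftmost in every row because the genes were chosen for it, while the order of the other 3 symbols changes from row to row.

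The widest gaps came at very different levels. Zm00001d032083 had the widest of all, at 30.3 FPKM with nitrate plus PCIB, 102 FPKM with nitrate, 102 FPKM with TIS108 and 151 FPKM in the N-deprived control. Its gap was 1.72, and its plain FPKM ratio of nitrate plus PCIB to nitrate was 0.295. It is the member whose gap was both wide and carried by a high level. Zm00001d043709 was at 0.411 FPKM with nitrate plus PCIB, 3.58 FPKM with nitrate, 3.51 FPKM with TIS108 and 6.61 FPKM in the N-deprived control. By plain ratio it was the deepest member, with nitrate plus PCIB at 0.117 of TIS108, the lowest other group, but it reached 5 FPKM in the control alone. Zm00001d003994 was at 1.22 FPKM with nitrate plus PCIB, 5.999 FPKM with nitrate, 6.19 FPKM with TIS108 and 8.39 FPKM in the N-deprived control. These are the 2 members whose plain ratio to the lowest other group was 0.25 or less, although neither reached 4-fold on the FPKM + 1 scale, which compresses low values.

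Other members with wide gaps lay at middle levels. Zm00001d048631 was at 2.96 FPKM with nitrate plus PCIB, 11.8 FPKM with nitrate, 12.7 FPKM with TIS108 and 11.1 FPKM in the N-deprived control. Its 3 other groups were thus nearly level, and nitrate plus PCIB stood apart from all of them by a gap of 1.61. Zm00001d040308 was at 4.91 FPKM with nitrate plus PCIB, 17.0 FPKM with nitrate, 16.9 FPKM with TIS108 and 29.9 FPKM in the N-deprived control. Zm00001d037894 was at 5.55 FPKM with nitrate plus PCIB, 18.6 FPKM with nitrate, 29.7 FPKM with TIS108 and 41.3 FPKM in the N-deprived control. In Zm00001d040308 and Zm00001d037894 the control was highest, so that nitrate alone already lay well below it and nitrate plus PCIB lay lower still.

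The 4 most abundant members, Zm00001d032083 among them, had gaps across the range of the set. Zm00001d031909 was at 343 FPKM with nitrate plus PCIB, 715 FPKM with nitrate, 772 FPKM with TIS108 and 814 FPKM in the N-deprived control, a gap of 1.06. Zm00001d024865 was at 27.1 FPKM with nitrate plus PCIB, 56.9 FPKM with nitrate, 93.5 FPKM with TIS108 and 104 FPKM in the N-deprived control, a gap of 1.04. Zm00001d007745 was at 29.0 FPKM with nitrate plus PCIB, 69.7 FPKM with nitrate, 72.6 FPKM with TIS108 and 77.4 FPKM in the N-deprived control, a gap of 1.24. Apart from these and Zm00001d032083, the levels of the set were ordinary. The mean of the 3 other groups had a median of 14.6 FPKM over the members and 13.7 FPKM over the 15401 gene models tested. It was under 10 FPKM in 12 members (32.4%, against 35.7% of all tested), from 10 to 30 FPKM in 17 (45.9% against 42.3%), from 30 to 100 FPKM in 6 (16.2% against 17.2%) and above 100 FPKM in 2 (5.41% against 4.77%).

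The limit lay in the tail of the distribution, and many members sat close to it. The gap was under 1.1 in 14 members and at least 1.5 in 7. The members just inside were Zm00001d018618, at 5.48 FPKM with nitrate plus PCIB and 12.1 FPKM with nitrate (gap 1.01), Zm00001d020383, at 14.5 FPKM with nitrate plus PCIB and 30.3 FPKM with TIS108 (gap 1.02), and Zm00001d007705, at 3.21 FPKM with nitrate plus PCIB and 7.53 FPKM with TIS108 (gap 1.02). Just outside were Zm00001d033286, at 4.95 FPKM with nitrate plus PCIB and 10.8 FPKM with nitrate (gap 0.99), Zm00001d038712, at 1.45 FPKM with nitrate plus PCIB and 3.81 FPKM with nitrate (gap 0.98), and Zm00001d015307, at 1.85 FPKM with nitrate plus PCIB and 4.57 FPKM with nitrate (gap 0.97). Gene models with a gap of 0.9 to 1 that met the level limit numbered 14. A further 3 gene models met the gap and not the level, among them Zm00001d010586, at 0.207 FPKM with nitrate plus PCIB, 2.41 FPKM with nitrate, 2.54 FPKM with TIS108 and 4.82 FPKM in the N-deprived control. All 3 of the other groups reached 5 FPKM in 32 members, and in the other 5 members at least 1 of them did not.

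The contrasts among the other 3 groups do not involve the PCIB values, although the rule read those groups for their lowest value. By the 2-fold limit few members differed there. With nitrate 2 of 37 were lower than in the N-deprived control (5.41%, against a background of 3.5% of 15254) and 0 higher (background 0.531%). With TIS108 2 of 36 at 5 FPKM or more were lower than in the N-deprived control (5.56%, against 1.75% of 15146) and 0 higher (0.0198%). Between TIS108 and nitrate, 1 of 35 was lower with TIS108 (2.86%, against 0.547% of 14818) and 0 were higher (0.769%). Each of these shares rests on 1 or 2 genes, so no departure from the background is read from them.

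The few members past that limit had their own profiles. Zm00001d037894, given above, and Zm00001d028718 were the 2 lower with nitrate than in the control. Zm00001d028718 was at 2.76 FPKM with nitrate plus PCIB, 7.81 FPKM with nitrate, 11.6 FPKM with TIS108 and 17.2 FPKM in the N-deprived control, so that its 4 values form a graded series. Zm00001d007160 and Zm00001d023215 were the 2 lower with TIS108 than in the control, and also the 2 with the widest range over the other 3 groups. Zm00001d007160 was at 2.08 FPKM with nitrate plus PCIB, 13.3 FPKM with nitrate, 6.19 FPKM with TIS108 and 17.5 FPKM in the N-deprived control. Zm00001d023215 was at 5.70 FPKM with nitrate plus PCIB, 27.8 FPKM with nitrate, 12.9 FPKM with TIS108 and 31.0 FPKM in the N-deprived control. In both, TIS108 lay far below the control and nitrate less so, with log2 differences of nitrate from the control of -0.37 and -0.16. The level with nitrate plus PCIB was lower again in both. Zm00001d023215 was also the member 2-fold lower with TIS108 than with nitrate (log2 difference -1.05), whereas Zm00001d007160 missed that limit narrowly at -0.996.

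**Figure D3:**
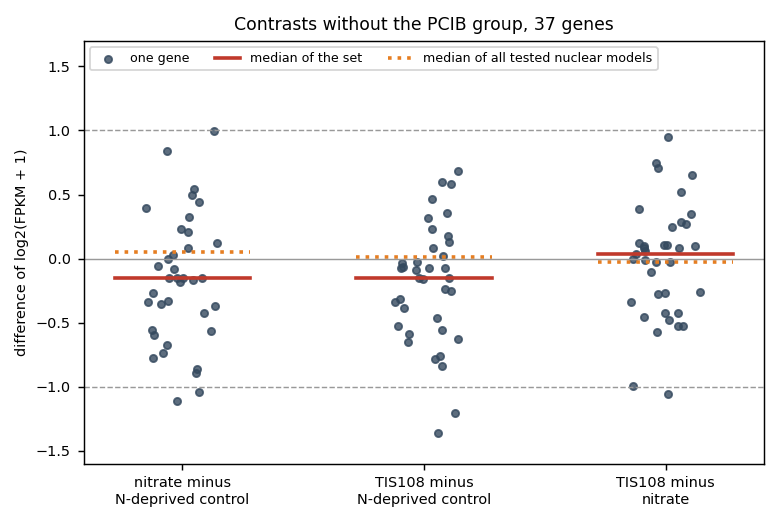
Differences of log2(FPKM + 1) for the 37 genes in the 3 contrasts that leave out the PCIB group, with each point 1 gene, the red line the median of the set and the dotted line the median of all tested nuclear gene models. Most points lie within the dashed 2-fold limits, and the medians against the control are -0.16 with nitrate and -0.15 with TIS108.

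The control was the highest of the 3 other groups in 22 members (59.5%, against 33.3% of the 15401), nitrate in 8 (21.6% against 38.3%) and TIS108 in 7 (18.9% against 28.4%). The rule read these 3 groups, and 2 of the 22, Zm00001d043709 and Zm00001d036072, reached 5 FPKM in the control alone, so the count is a description of the set. Among the 32 members with 5 FPKM or more in all 3, the control was highest in 19 (59.4%, against 30.8% of the 13562 gene models at that level). The 22 include the 4 members past a 2-fold limit that were described above. The median log2 difference over the members was -0.16 for nitrate minus the control, with 25 of 37 below the control, where the median over all tested was 0.05. For TIS108 minus the control the median was -0.15 with 26 of 37 below, where that over all tested was 0.01. For TIS108 minus nitrate it was 0.04, with 19 above and 18 below. These values depend on the scaling of the columns, and those over all tested moved with them. With every column rescaled to the same sum the control was highest in 15 of 37 members, against 22.1% of all tested. For TIS108 minus the control 19 members were then above and 18 below. Their median was 0.00, where that over all tested was 0.16. After quantile normalization the control was highest in 19 of 37 members, against 28.8% of all tested, and 22 of 37 were below the control with TIS108.

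The members also varied more among the other 3 groups than all gene models tested. The range of log2(FPKM + 1) was taken over nitrate, TIS108 and the control. Its median was 0.56 in the members, 0.55 in the raised set and 0.27 in all tested. It was under 0.25 in 7 members (18.9%, against 45.3% of all tested), under 0.5 in 17 (45.9% against 80.7%) and under 1 in 33 (89.2% against 95.0%). At 1.5-fold, 12 members were below the control with nitrate or TIS108 (32.4%, against 12.2% of all tested) and 4 were above it with either (10.8% against 1.84%). In Zm00001d007160 and Zm00001d023215 the gap to nitrate plus PCIB was narrower than the range of the other groups. In the other 35 it was wider, which the rule fixed for the 33 with a range under 1. The steadiest member was Zm00001d049252, at 7.15 FPKM with nitrate plus PCIB, 17.0 FPKM with nitrate, 16.6 FPKM with TIS108 and 17.0 FPKM in the N-deprived control. The next was Zm00001d007745, with a range of 0.15. In these 2 genes the nutrient solutions without PCIB gave almost the same level.

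All 6 orders of the other 3 groups occurred among the members, and the examples that follow were chosen after their values were seen. In 12 members the control was highest and nitrate lowest of the 3 (32.4%, against 17.0% of the 15401). Zm00001d052386, at 14.3 FPKM with nitrate plus PCIB, 37.3 FPKM with nitrate, 47.8 FPKM with TIS108 and 57.0 FPKM in the N-deprived control, is an example. In 10 the control was highest and TIS108 lowest (27.0% against 16.3%). In several of these, Zm00001d032083, Zm00001d043709 and Zm00001d040308 among them, nitrate and TIS108 were almost equal. Over the whole set they lay within 0.1 on the log2 scale in 27.0% of members, against 38.6% of all tested. In the 15 members outside those 12 and 10 the control was not the highest.

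Among those 15, 4 members were highest with nitrate and lowest in the control, which is 10.8% of the members, against 23.9% of all tested. Zm00001d053156 was at 9.35 FPKM with nitrate plus PCIB, 40.9 FPKM with nitrate, 28.1 FPKM with TIS108 and 22.3 FPKM in the N-deprived control. Zm00001d014852 was at 1.38 FPKM with nitrate plus PCIB, 8.59 FPKM with nitrate, 5.66 FPKM with TIS108 and 3.82 FPKM in the N-deprived control. Its difference of nitrate from the control was 0.99 on the log2 scale, just short of the 2-fold limit, so 0 members met that limit as higher with nitrate. Zm00001d002347 stood out for TIS108, at 15.1 FPKM with nitrate plus PCIB, 32.1 FPKM with nitrate, 62.8 FPKM with TIS108 and 38.8 FPKM in the N-deprived control. It had the widest difference upward between TIS108 and nitrate in the set, 0.95 on the log2 scale. Zm00001d017536 had the same order, at 6.51 FPKM with nitrate plus PCIB, 16.2 FPKM with nitrate, 27.8 FPKM with TIS108 and 18.2 FPKM in the N-deprived control.

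The 19 members that the rule for naming genes did not pick lay between 1.23 and 15.1 FPKM with nitrate plus PCIB (median 4.54), between 4.19 and 40.9 FPKM with nitrate (median 13.2), between 4.26 and 62.8 FPKM with TIS108 (median 11.3) and between 3.82 and 57.0 FPKM in the N-deprived control (median 12.3). Their gaps ran between 1.02 and 1.53.

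The identifiers of some members were close in number. How often this occurs in other sets of this size was not examined, so it is not read as a trait of the set. Zm00001d052683 and Zm00001d052684 were the 1 pair of members with consecutive identifiers. Zm00001d052683 was at 3.06 FPKM with nitrate plus PCIB, 8.91 FPKM with nitrate, 11.98 FPKM with TIS108 and 7.58 FPKM in the N-deprived control. Zm00001d052684 was at 7.19 FPKM with nitrate plus PCIB, 18.6 FPKM with nitrate, 22.9 FPKM with TIS108 and 20.8 FPKM in the N-deprived control. TIS108 was the highest group in both, while nitrate and the control changed places. Zm00001d007700 and Zm00001d007705, with identifiers 5 apart, were picked out after their values were seen. Zm00001d007700 was at 4.54 FPKM with nitrate plus PCIB, 13.2 FPKM with nitrate, 10.7 FPKM with TIS108 and 19.99 FPKM in the N-deprived control. Zm00001d007705 was at 3.21 FPKM with nitrate plus PCIB, 9.32 FPKM with nitrate, 7.53 FPKM with TIS108 and 12.2 FPKM in the N-deprived control. Both ran in the order control, nitrate, TIS108, nitrate plus PCIB, and the ratio of nitrate plus PCIB to nitrate was 0.345 in each. Of the 6 other gene models of the table whose identifiers lay within 3 of either pair, 4 reached 5 FPKM. Nitrate plus PCIB was the lowest group in 0 of these 4, against 27.1% of the 15401 tested. With so few genes nothing is read from this. Zm00001d007706, for instance, was at 20.7 FPKM with nitrate plus PCIB, 20.5 FPKM with nitrate, 20.4 FPKM with TIS108 and 20.8 FPKM in the N-deprived control. Whether such genes are adjacent or near-identical in sequence was not examined, so reads that near-identical copies would share cannot be told apart here.

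Outside the nuclear gene models, 5 entries met the same limits. The MIR171f locus, of a microRNA family that targets GRAS transcription factor genes of the HAIRY MERISTEM group in Arabidopsis, was at 15.8 FPKM with nitrate plus PCIB, 40.8 FPKM with nitrate, 49.6 FPKM with TIS108 and 52.4 FPKM in the N-deprived control, a gap of 1.31. This is reads over the locus in a poly(A) library and not the mature microRNA, and ENSRNA049997305 shares all 4 values with it. The other 3 were ENSRNA entries, of which ENSRNA049475135 had the widest gap, at 3.23 FPKM with nitrate plus PCIB, 18.1 FPKM with nitrate, 10.3 FPKM with TIS108 and 10.3 FPKM in the N-deprived control. None of the 37 members shared its 4 values with another entry.

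The size of the set depends on how low values are treated. With a pseudocount of 0.1 FPKM, 62 gene models met the rule, including all 37 members, and with a pseudocount of 5 FPKM 7 did, all of them members. A larger pseudocount narrows every such gap, so both overlaps were fixed by arithmetic and say nothing on the stability of the set. Those 7 were Zm00001d032083, Zm00001d048631, Zm00001d040308, Zm00001d037894, Zm00001d052386, Zm00001d007745 and Zm00001d031909. They were the members at the limit under all 5 scales tried, which were the 3 pseudocounts, columns rescaled to the same sum, and quantile normalization. Rescaling kept 35 of the 37 and quantile normalization 36. Among the settings tried, the size of the set thus moved more with the pseudocount than with the scaling of the columns. How much more depends on the pseudocounts chosen.

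**Figure D4:**
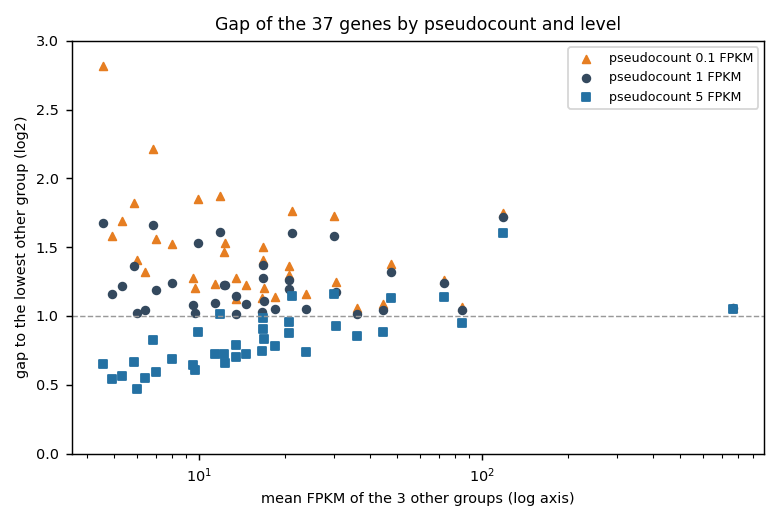
Gap of the 37 genes (log2, vertical axis) against their mean FPKM in the 3 other groups (log axis), computed with a pseudocount of 0.1 FPKM (orange triangles), 1 FPKM (dark circles) or 5 FPKM (blue squares). The 3 symbols of a gene lie apart at low levels and close together at high levels, and with a pseudocount of 5 FPKM 7 genes stay at or above the dashed limit.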

How the data were processed

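Poly(A) RNA was profiled in 12 samples, 3 per group, grouped by their titles. Libraries were paired-end and prepared with a TruSeq kit, per the labels' protocols. Per the submitters' processing notes, the tools were CASAVA 1.8, Trimmomatic 0.39 and TopHat2 2.0.13, of unstated role and order, and the genome build was B73 RefGen_v4. The authors deposited 1 table of FPKM values with 1 column per group, named for the treatment. Not given in the sources used here are the program that gave FPKM, its annotation, strand handling and the way replicates were combined. The table gives no counts, so depth is unknown and no interval was computed. FPKM is scaled to a total of mapped fragments, so abundant transcripts shift the others, and values of short or low genes are less stable. At most 3 decimals were given for 24 of the 37 members (64.9%) and for 43.6% of nuclear gene models; its part in the results was not tested.

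The plan of limma over replicates could not be run with 1 value per group, and 0 tests were made. Differences were taken on log2(FPKM + 1) and counted at 2-fold where the higher of the groups compared reached 5 FPKM; plain ratios are of FPKM. The members, lists and alternatives were chosen with earlier results of these data known. By the naming rule, genes were named for the widest gap (6), the highest level (4), nearness to the limit (3 on each side), the widest and narrowest range over the other groups (2 each), 2-fold differences among those groups and consecutive identifiers; 18 members met it. None of the 26061 nuclear identifiers was found in RefSeq's genes for Zm-B73-REFERENCE-NAM-5.0, so 0 of 16 function lists could be filled. As green tissue markers, the plastid photosystem genes psbA and psaB stood at 1.04 and 0.222 FPKM with nitrate plus PCIB, against 0.433 to 0.609 FPKM and 0.0823 to 0.117 FPKM in the other groups; their part in the results was not tested. Python 3.11.15, pandas 2.3.3, numpy 2.4.6 and matplotlib 3.10.9 were used.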

Additional observations from a re-analysis of the deposited data

How the results depend on the processing

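Of 58 values recomputed under the alternatives, 42 were the same or within 1.5 times and 16 were not. Most of these values are small counts, and 0 under both settings was taken as the same, so the 42 are no measure of stability. The number of members was 62 with a pseudocount of 0.1 FPKM, 7 with a pseudocount of 5 FPKM, 130 with a gap of 1.5-fold and 0 with a gap of 4-fold, against 37. It was 40 with no level limit, 29 with a limit of 10 FPKM, 32 with 5 FPKM asked of all 3 other groups, 42 after quantile normalization and 40 where columns were scaled to equal sums. The counts that follow were taken over the genes that met the rule under each setting, so scale and membership changed together. With a pseudocount of 0.1 FPKM, 2 of the 62 were 4-fold below the lowest other group, 4 were higher and 4 lower with nitrate than in the control, and 1 was higher and 5 lower with TIS108 than with nitrate. With a pseudocount of 5 FPKM, 0 of the 7 were lower with nitrate or TIS108 than in the control and 0 were lower with TIS108 than with nitrate. With columns rescaled to the same sum, 1 was lower with nitrate than in the control, and 1 was higher and 0 lower with TIS108 than with nitrate. After quantile normalization 1 was higher with TIS108 than with nitrate. The 37 members were also held fixed, a comparison added after seeing the data. At a pseudocount of 0.1 FPKM, 1 was higher and 3 lower with nitrate than in the control. At 5 FPKM, 0 were higher and 0 lower. Equal column sums gave 1 higher and 1 lower in this contrast, and quantile normalization gave 1 and 2. The count of 0 higher with nitrate thus held at 5 FPKM and not under the other 3 alternatives. With TIS108, 2 lay 2-fold below the control under each pseudocount and scaling tried. Between TIS108 and nitrate, 2 were lower with TIS108 at 0.1 FPKM and 0 at 5 FPKM. For that pair, equal column sums gave 1 higher and 0 lower with TIS108, and quantile normalization gave 1 and 1. For the scalings the cause was not tested. No paired analysis was possible because the table holds 1 value per group, and for the same reason no replicate could be left out.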
